A study of Rattus norvegicus with 18 samples.

Results

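Type I interferon response genes are transcripts that many cell types raise after interferon alpha or beta binds its receptor. The 8 described here are Mx1, Mx2, Isg15, Irf7, Ifit2, Ifit3, Rsad2 and Usp18, of 13976 genes named on the array. They were selected on the signals of these same arrays, with results already known, and their probe sets were found by gene symbol in the submitters' annotation. A probe set is a group of short probes that together read a transcript. The 8 genes had 10 of the 31099 probe sets, because Mx2 and Ifit2 have a pair each. All 10 passed the filter on dim probe sets, and each was above it on all 18 arrays. Because signals in all 6 groups were used to choose them, their values are given as a description without a test.

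Liver RNA was measured on Affymetrix Rat Genome 230 2.0 arrays, with 3 arrays in each of 6 groups of 12-week-old Sprague-Dawley rats. SPH livers were taken 2 h after partial hepatectomy, the removal of part of the liver, combined with sympathectomy. VPH livers were taken 2 h after hepatectomy combined with vagotomy, and TDPH livers 2 h after hepatectomy combined with total liver denervation. PH livers were taken 2 h after hepatectomy alone, sham livers 2 h after a sham operation, and normal livers at 0 h. SPH, VPH, TDPH and PH rats thus shared the hepatectomy, and none of the 6 groups had nerves cut without it. The tissue was mid-part right lobe, taken once the blood had been flushed out through the portal vein. Arrays within a group are described in the labels as technical replicates. The number of animals, their sex and the way nerves were cut are not given in the sources used here. Every n therefore counts arrays, and every SD, SE and p-value measures only the spread between arrays.

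The trimmed mean signal was 500.2 to 500.3 on the 18 arrays, and the median signal ran between 114.5 and 150.4. All 8 hepatocyte markers looked up were measured, and their median difference was between -0.28 and 0.23 on the log2 scale in the 8 comparisons made. Albumin (Alb), the main hepatocyte secretory protein, had signals of 38070 to 64499. The arrays of SPH livers were the most spread, with a median SD of 0.234 on the log2 scale over all 22125 probe sets tested, against 0.156 to 0.197 in the other 5 groups.

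Type I interferons are released when sensors such as Rigi, Ifih1 or Toll-like receptors meet foreign or misplaced nucleic acids or bacterial products. Binding to the receptor of Ifnar1 and Ifnar2 activates the kinases Jak1 and Tyk2, and a factor that contains Stat2 and Irf9 then binds the interferon-stimulated response element in the promoters of target genes. In the liver, hepatocytes, Kupffer cells and endothelial cells all respond, and the response is best known there for restraining hepatitis viruses. Irf7 is a transcription factor of the feed-forward arm. Mx1, Mx2, Ifit2, Ifit3 and Rsad2 are antiviral effectors, Isg15 is a ubiquitin-like modifier, and Usp18 removes it from proteins and damps the receptor.

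Promoters are printed because the response element is read in DNA sequence. The members were listed as interferon response genes, so finding the element in their promoters is not separate from that choice. Of the 8 genes, 4 were matched to a RefSeq promoter of build GRCr8, running from 250 bases before to 50 bases after the start site. Capitals mark the core of the element, which is GAAA, then any 2 bases, then GAAA. It was searched on both strands, and where found the printed strand holds its reverse complement, TTTC, any 2 bases, TTTC.
Irf7 (chr1:205799974-205800273, minus strand): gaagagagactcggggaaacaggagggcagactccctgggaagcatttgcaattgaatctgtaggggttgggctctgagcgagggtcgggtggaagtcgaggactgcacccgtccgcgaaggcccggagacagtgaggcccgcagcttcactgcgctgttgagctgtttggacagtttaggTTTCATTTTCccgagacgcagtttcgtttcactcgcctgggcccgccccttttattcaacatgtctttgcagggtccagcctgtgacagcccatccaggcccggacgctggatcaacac
Ifit3 (chr1:241527076-241527375, plus strand): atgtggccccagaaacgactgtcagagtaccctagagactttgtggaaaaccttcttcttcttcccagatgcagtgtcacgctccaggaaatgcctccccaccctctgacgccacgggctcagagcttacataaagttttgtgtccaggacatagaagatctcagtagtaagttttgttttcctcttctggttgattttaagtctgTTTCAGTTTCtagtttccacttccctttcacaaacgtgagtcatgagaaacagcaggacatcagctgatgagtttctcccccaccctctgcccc
Rsad2 (chr6:48788071-48788370, minus strand): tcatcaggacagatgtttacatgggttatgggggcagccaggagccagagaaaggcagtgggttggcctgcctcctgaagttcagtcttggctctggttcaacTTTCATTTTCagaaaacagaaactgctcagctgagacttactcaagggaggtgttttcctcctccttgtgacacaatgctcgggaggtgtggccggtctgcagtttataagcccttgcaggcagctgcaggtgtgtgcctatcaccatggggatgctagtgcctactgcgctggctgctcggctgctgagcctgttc
Mx1 (chr11:50294557-50294856, minus strand): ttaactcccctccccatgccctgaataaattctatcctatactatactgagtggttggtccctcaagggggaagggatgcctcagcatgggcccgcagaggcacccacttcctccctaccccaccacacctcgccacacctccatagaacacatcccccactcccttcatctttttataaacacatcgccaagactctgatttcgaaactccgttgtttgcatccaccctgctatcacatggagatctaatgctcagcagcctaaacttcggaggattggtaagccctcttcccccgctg
The core lay 69 bases before the start site in Irf7, 44 in Ifit3 and 147 in Rsad2, and these letters were not in the Mx1 window. It was thus in 3 of 4 member promoters. Of all 33469 promoters of this length in the table, 1312 (3.92%) held it, as did 37 of 97 (38.1%) promoters of the other interferon pathway genes listed for comparison. The gamma-activated sequence TTCNNNGAA, an element of interferon gamma targets, was in 0 of the 4 member promoters and in 8.87% of all promoters. It was in 22 of 97 (22.7%) promoters of the other pathway genes. A match is a description of letters only. Mx2, Isg15, Ifit2 and Usp18 are named without sequence. In gene order, Ifit2 and Ifit3 are next neighbours, Mx1 and Mx2 lie on either side of Fam3b, and Rsad2 lies beside Cmpk2.

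Signals are on the linear scale of the deposited table. Differences are between group means of log2(signal + 12), where 12 keeps dim signals from dominating and slightly shrinks the change of dim probe sets. The SPH, VPH and TDPH differences from PH share the same 3 PH arrays, so they are set side by side and not correlated. In whole liver RNA, a change in the number of cells of a type and a change in RNA per cell cannot be told apart.

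Irf7, the transcription factor, had signals of 2459, 2089 and 1231 in SPH livers, 2182, 2079 and 2124 in VPH livers and 2996, 3434 and 2912 in TDPH livers, against 1096, 1151 and 1124 in PH livers. Sham livers had 1454, 1568 and 1370, and normal livers 1483, 1550 and 1654. Every denervated array was above every PH array, and the TDPH arrays were above all arrays of the other 5 groups. The difference from PH was 0.71 in SPH, 0.91 in VPH and 1.46 in TDPH (SE 0.15 each). PH arrays were below all sham arrays (-0.38), while sham and normal arrays overlapped (-0.09).

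Mx1, a dynamin-like GTPase that blocks viral polymerases, had signals of 567, 480 and 399 in SPH, 542, 589 and 616 in VPH and 774, 953 and 532 in TDPH livers, against 223, 171 and 222 in PH livers. Sham livers had 256, 286 and 311, and normal livers 558, 528 and 463. The denervated groups overlapped with one another and with normal liver, PH was the lowest group, and sham lay between PH and the rest without overlap. Against PH the difference was 1.18 in SPH, 1.46 in VPH and 1.79 in TDPH (SE 0.17 each). PH was 0.45 below sham and sham 0.83 below normal on this scale.

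The pair of Mx2 probe sets gave different patterns. Mx2 is a related GTPase that acts in the cytoplasm in the rat. Probe set 1387283_at had signals of 1556, 831 and 801 in SPH, 1237, 1148 and 1222 in VPH and 1429, 1622 and 1037 in TDPH livers, against 247, 262 and 312 in PH livers. Sham livers had 259, 288 and 247, and normal livers 607, 739 and 674. The denervated groups were the highest, normal liver was intermediate, and PH and sham overlapped at the bottom. Its differences from PH were the largest of the 10 probe sets in all 3 denervated groups, at 1.85 in SPH, 2.09 in VPH and 2.25 in TDPH (SE 0.19 each).

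Probe set 1369202_at of Mx2 had signals of 515, 1436 and 269 in SPH, 1133, 1359 and 1410 in VPH and 2411, 2209 and 1791 in TDPH livers, against 1335, 1254 and 1385 in PH livers. Sham livers had 2538, 2483 and 1972, and normal livers 574, 716 and 685. Sham and TDPH were highest and overlapped, PH and VPH overlapped in the middle, and normal liver was low. In SPH livers, replicate 2 was above all 3 PH arrays and the other 2 arrays were below them. Its differences from PH were -1.16 in SPH, -0.03 in VPH and 0.68 in TDPH (SE 0.34 each), and leaving out SPH replicate 2 moved the SPH value to -1.79. Leaving out SPH replicate 3 moved it to -0.61. Sham was 1.80 above normal in this probe set and 1.31 below normal in the other. The transcript record behind 1369202_at did not match the RefSeq gene table, whereas that behind 1387283_at matched Mx2. Mx genes are a family of similar sequence, and which family member each probe set reads was not tested.

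Ifit2 and Ifit3 encode tetratricopeptide proteins that bind foreign RNA and curb translation. The 1384180_at probe set of Ifit2 had signals of 1422, 912 and 1171 in SPH, 899, 813 and 741 in VPH and 1298, 1237 and 1057 in TDPH livers, against 645, 661 and 673 in PH livers. Sham livers had 757, 775 and 798, and normal livers 1491, 1564 and 1451. Normal liver was the highest group without overlap, SPH and TDPH came next, and VPH overlapped with sham. The difference from PH was 0.79 in SPH, 0.30 in VPH and 0.84 in TDPH (SE 0.12 each). The 1379568_at probe set of Ifit2 gave 0.94, 0.18 and 0.90 in the same order of groups, and its VPH arrays overlapped with PH. The centred 6-group profiles of this pair differed by a root mean square of 0.099, the smallest of any pair of member probe sets, and those of the Mx2 pair by 1.346, the largest.

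Ifit3 had signals of 1753, 903 and 666 in SPH, 449, 414 and 396 in VPH and 767, 1024 and 698 in TDPH livers, against 300, 329 and 330 in PH livers. Sham livers had 274, 189 and 225, and normal livers 306, 280 and 273. SPH and TDPH overlapped at the top, VPH was clearly lower but above PH, and PH, normal and sham followed. Against PH the difference was 1.64 in SPH, 0.38 in VPH and 1.32 in TDPH (SE 0.23 each). It was the only member whose PH arrays were all above the sham arrays (0.47).

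Rsad2, also called viperin, makes a chain-terminating nucleotide. It had signals of 536, 404 and 320 in SPH, 349, 356 and 331 in VPH and 444, 341 and 459 in TDPH livers, against 191, 245 and 166 in PH livers. Sham livers had 381, 299 and 349, and normal livers 277, 350 and 202. All denervated arrays were above all PH arrays, and they overlapped with sham. The difference from PH was 1.01 in SPH, 0.76 in VPH and 1.01 in TDPH (SE 0.20 each), and PH was 0.75 below sham.

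Isg15, the ubiquitin-like modifier, had signals of 2154, 1712 and 1359 in SPH, 2029, 2064 and 2009 in VPH and 2538, 2652 and 1802 in TDPH livers, against 802, 682 and 721 in PH livers. Sham livers had 941, 834 and 1083, and normal livers 972, 1032 and 990. All denervated arrays were above all arrays of the 3 groups with intact nerves. Against PH the difference was 1.21 in SPH, 1.46 in VPH and 1.63 in TDPH (SE 0.14 each).

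Usp18, the protease that removes Isg15, had signals of 1648, 1540 and 928 in SPH, 2318, 1960 and 2105 in VPH and 1907, 2165 and 1782 in TDPH livers, against 1034, 1088 and 963 in PH livers. Sham livers had 1147, 1175 and 1081, and normal livers 870, 1063 and 999. VPH and TDPH overlapped and were above all arrays of the other groups, whereas SPH replicate 3 was below all 3 PH arrays. The difference from PH was 0.37 in SPH, 1.04 in VPH and 0.91 in TDPH (SE 0.15 each). Leaving out SPH replicate 3 moved the SPH value to 0.63, and leaving out replicate 1 moved it to 0.22.

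**Figure D1:**
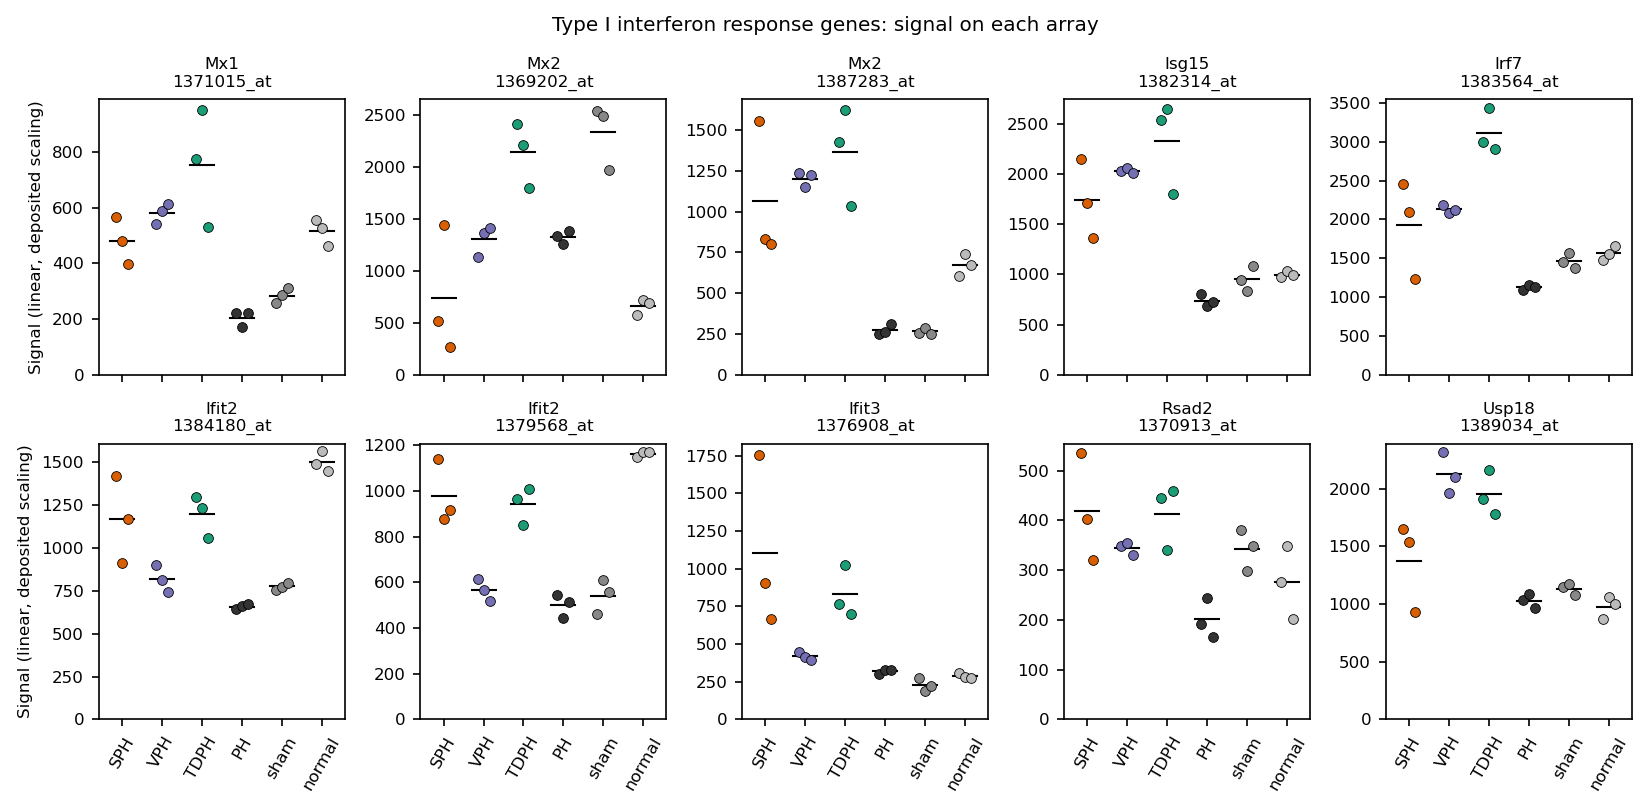
Signal (linear, deposited scaling) of each of the 10 probe sets on each of the 18 arrays, by group; points are arrays and bars are group means of 3. Isg15 runs between 1359 and 2652 in the 3 denervated groups, against 682 to 802 in PH, while the pair of Mx2 panels differ in shape.

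The plot of signals by array shows these patterns for all 10 probe sets. TDPH had the highest mean signal in 4 probe sets (Mx1, Mx2 1387283_at, Isg15 and Irf7) and PH the lowest in 6 (Mx1, Isg15, Irf7, both of Ifit2, and Rsad2). Normal liver was highest for both Ifit2 probe sets, SPH for Ifit3 and, with TDPH close behind (420 in SPH and 414 in TDPH), for Rsad2, VPH for Usp18 and sham for Mx2 1369202_at. Neighbours in the order of group means mostly overlapped.

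In SPH livers, 8 of the 10 probe sets had all 3 arrays above all 3 PH arrays and the other 2 overlapped (Mx2 1369202_at and Usp18); 13.8% of all 22125 tested probe sets lay above in this way. In VPH livers the count was also 8, with Mx2 1369202_at and Ifit2 1379568_at overlapping, beside 17.6% of all tested. In TDPH livers it was 10, beside 21.2%. The median difference of the 8 brightest probe sets, 1 for each gene, was 0.90 in SPH, 0.84 in VPH and 1.17 in TDPH, where the median of all tested probe sets was 0.028, 0.047 and 0.106. These arrays chose the members, so nothing is read from these counts.

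PH arrays were all below the sham arrays in 6 member probe sets (24.4% of all tested) and all above in 1, Ifit3 (13.5%). The median PH difference from sham was -0.37, against -0.114 over all tested. Sham arrays were all below normal in 4 (19.7% of all tested), namely Mx1, Mx2 1387283_at and both of Ifit2. They were all above in 2 (15.5%), Mx2 1369202_at and Usp18. Against normal liver, 6 probe sets were all above in VPH (16.9% of all tested) and the same 6 in TDPH (15.7%). These were both of Mx2, Isg15, Irf7, Ifit3 and Usp18. In SPH, 3 were all above normal (Mx2 1387283_at, Isg15 and Ifit3) and 5 overlapped. Both Ifit2 probe sets were all below normal in SPH, VPH and TDPH. In PH, 1 was all above normal (Mx2 1369202_at) and 6 were all below. The share of all tested probe sets was not counted for SPH or PH against normal, nor for arrays below normal in VPH and TDPH.

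**Figure D2:**
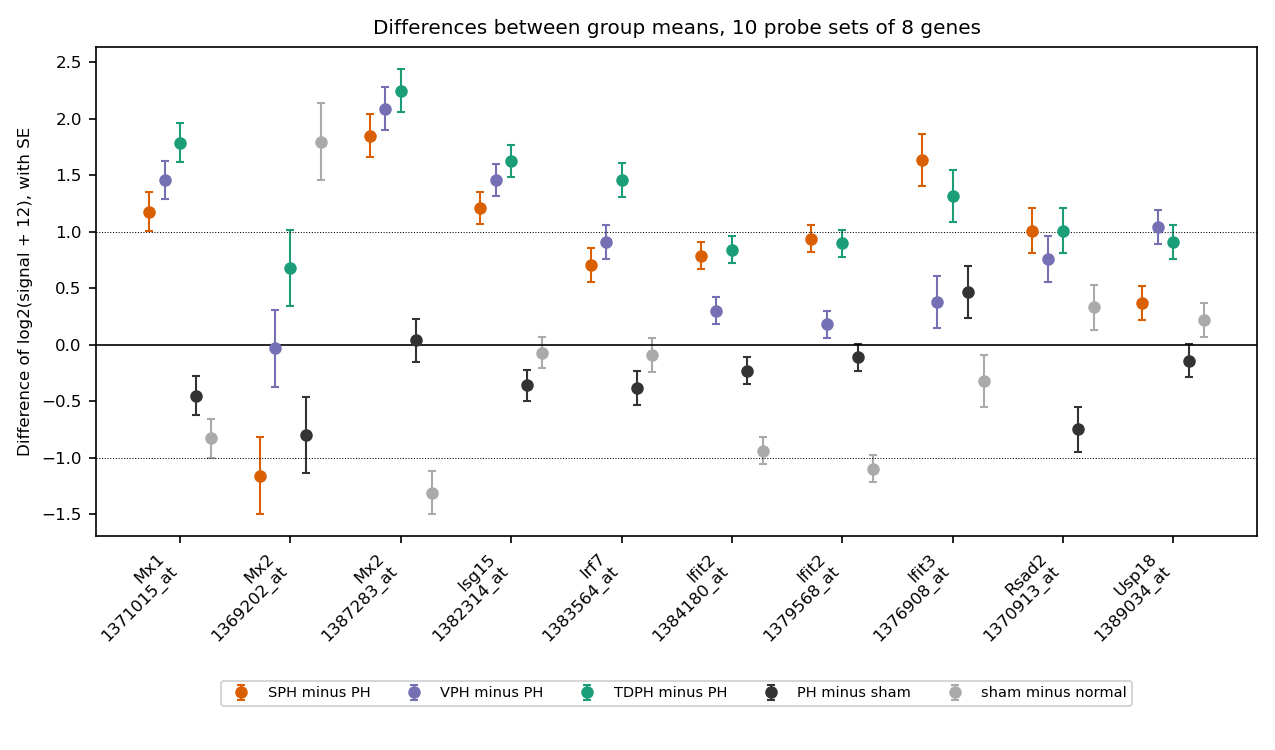
Differences of group means of log2(signal + 12) for the 10 probe sets, with the SE of the fit as bars; dotted lines mark 2-fold. Differences of SPH, VPH and TDPH from PH are above 0 except in Mx2 1369202_at, whose SPH value is -1.16 and VPH value -0.03, and those of PH from sham are below 0 except in Ifit3 and Mx2 1387283_at (with centred arrays, Ifit2 1379568_at at 0.05 and Usp18 at 0.02 are above 0 too).

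Between the denervated groups, the members did not keep 1 order, as the plot of differences shows for their distances from PH. SPH arrays were all above VPH in 3 probe sets, both of Ifit2 (0.49 and 0.77) and Ifit3 (1.26), where 15.6% of all tested lay above. They were all below VPH in Usp18 alone (-0.67), where 17.1% lay below, and 6 overlapped. TDPH arrays were all above SPH in 3 (16.1% of all tested), Mx2 1369202_at (1.83), Irf7 (0.74) and Usp18 (0.54). They were all above VPH in 5 (21.9%), namely Mx2 1369202_at (0.71), Irf7 (0.54), Ifit2 (0.54 and 0.72) and Ifit3 (0.95).

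The 3 SPH arrays differed among themselves more than those of other groups. Replicate 1 was the highest SPH array in 9 of the 10 probe sets and replicate 3 the lowest in 8. The median SD of the members on the log2 scale was 0.405 in SPH, against 0.091 in VPH, 0.224 in TDPH, 0.102 in PH, 0.153 in sham and 0.109 in normal livers. The neutrophil marker S100a8, a calcium-binding alarm protein, had signals of 12117, 7696 and 5441 in the same order of SPH replicates, against 3781, 3542 and 3678 in PH livers. The neutrophil protease Mmp8 had 1061, 658 and 494 in SPH, against 285, 265 and 225 in PH. Without SPH replicate 1, the median member difference from PH was 0.73, and without replicate 3 it was 1.09.

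Of 7 neutrophil markers measured, 5 rose in SPH over PH, where 1.49% of all tested probe sets were called in either direction. Their summed signal was 20301 to 42068 in SPH, against 12011 to 12689 in PH. Their part in the SPH result was not tested. In TDPH livers the same sum was 5403 to 6224, below PH, and 2 of the 7 fell, where 1.65% of all tested probe sets were called. The part of these cells in the TDPH result was not tested either. S100a9, the partner of S100a8, had 3704, 4059 and 3439 in TDPH, against 7527, 8355 and 7631 in PH. Markers of macrophages and Kupffer cells had median differences from PH of 0.18 in SPH, 0.55 in VPH and -0.17 in TDPH. The plasmacytoid list, of cells that make much interferon, had 4 of 8 genes measured and 3 tested. Against PH, 0 of the 3 rose or fell in any denervated group. Irf8, shared with the pathway list, averaged 973 in VPH livers, against 552 in PH livers. The plasmacytoid list had a median difference from PH of -0.01 for VPH, 0.24 for TDPH and 0.19 for SPH. Its summed signal was 1140 to 1367 in SPH, 1462 to 1501 in VPH and 1329 to 1393 in TDPH, against 1122 to 1171 in PH.

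**Figure D3:**
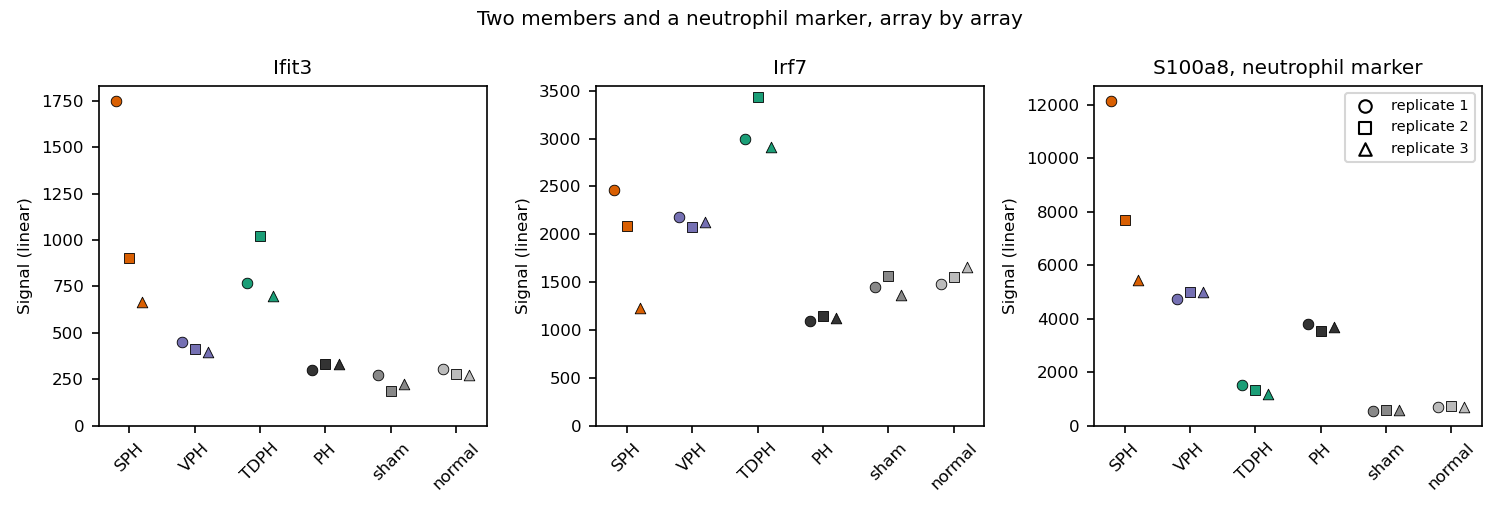
Signal (linear) of Ifit3, Irf7 and the neutrophil marker S100a8 on each array, with the replicate number as the symbol. In SPH livers replicate 1 is highest in all 3 panels. In TDPH livers S100a8 is 1179 to 1527, below PH, and Irf7 is 2912 to 3434, above PH. A link between the panels was not tested.

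The plot of Ifit3, Irf7 and S100a8 sets the members beside this marker. The other pathway genes were then tested with limma across all 22125 probe sets, and p-values were adjusted by Benjamini and Hochberg's method in each comparison. A gene rose or fell where the adjusted p was under 0.05 and the difference at least 2-fold; higher or lower alone means an adjusted p under 0.05 at any size. Of 109 genes listed by role, 78 were tested, 26 had no probe set naming them alone, and 5 were below the filter. The list was drawn up with earlier results of these arrays known.

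Of 9 ligands listed, Ifna4, Ifna11, Ifne, Ifnl1 and Ifnl3 had no probe set naming them alone, and the others gave little signal. Ifnb1, which encodes interferon beta, was below the filter and had at most 91.8 on any array, with a highest signal of 22.6 in SPH, 91.8 in VPH and 30.7 in TDPH, against 20.7 in PH. Ifng, interferon gamma, was also below it, at 27.3, 30.1 and 5.07 in SPH, 91.9, 83.3 and 95.1 in VPH and 43.1, 8.52 and 61.9 in TDPH, against 4.34, 56.1 and 86.2 in PH. Ifna1, the alpha interferon with a probe set, was tested and averaged 78.8 ± 41.2 in SPH, 69.0 ± 44.9 in VPH and 103 ± 70.0 in TDPH, against 77.7 ± 55.1 in PH livers (SD, n = 3 each). Ifna1 differed from PH by less than the spread between arrays in each denervated group, and Ifnb1 and Ifng were not tested.

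Against PH, 0 of 78 pathway genes rose or fell in SPH by limma, where 1.49% of all probe sets tested were called in either direction. At an unadjusted p under 0.05, 28 were higher and 6 lower. The share of all tested probe sets at that unadjusted p was not counted, so nothing is read from these counts. Leaving out PH replicate 1, or SPH replicate 2 or 3, gave 1 rise, and leaving out SPH replicate 1 gave 1 fall. With the adjusted p alone, 22 were higher (7.41% of all tested) and 1 lower (6.8% of all tested). Without SPH replicate 1 the counts were 13 and 5, and with every array centred on its median they were 13 and 2. Shares of all tested probe sets by the adjusted p alone were not counted under such alternatives, here or in the comparisons below. The pathway median was 0.13, against 0.028 over all tested.

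In VPH, 6 pathway genes rose over PH and 0 fell, where 1.79% of all probe sets were called. These were Gbp2 (1.59 ± 0.16, SE), Psmb9 (1.29 ± 0.05), Tap1 (1.19 ± 0.11), Gbp4 (1.17 ± 0.19), Slfn3 (1.10 ± 0.20) and Irf1 (1.09 ± 0.10). Slfn3 missed 2-fold without PH replicate 2 (0.82), and Irf1 with centred arrays (0.99). In VPH and normal livers, Gbp2 averaged 2893 and 2792, Tap1 1904 and 1821, and Irf1 2005 and 2583. Psmb9 averaged 7068 and 5055, Gbp4 492 and 396, and Slfn3 2450 and 1846. VPH was not tested against normal liver. Gbp2 and Gbp4 are guanylate-binding GTPases, Psmb9 an immunoproteasome subunit, Tap1 a peptide transporter and Irf1 a transcription factor, all of which interferon gamma is also known to raise. By the adjusted p alone, 37 were higher (6.04% of all tested) and 1 lower (5.93%), with a median of 0.34 against 0.047 over all tested. With centred arrays 24 were higher and 1 lower, and the median of all tested probe sets was -0.045. Of 12 T and NK cell markers tested, 6 rose in VPH over PH (median 1.12), and their summed signal, with Ncr1 included below the filter, was 4372 to 4812 in VPH, against 2163 to 2360 in PH. The part of these cells in the rise was not tested.

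In TDPH, 2 pathway genes rose over PH and 0 fell, where 1.65% of all probe sets were called. Slfn3, a schlafen family growth regulator, averaged 2767 ± 422 in TDPH and 1185 ± 396 in PH livers (SD, n = 3 each), a difference of 1.26 with a limma adjusted p of 0.000165. Adar, an RNA-editing enzyme, averaged 688 ± 86.5 in TDPH and 327 ± 21.9 in PH livers, a difference of 1.04 with a limma adjusted p of 5.47e-06. A second Adar probe set gave 0.74, under 2-fold. Slfn3 missed 2-fold without PH replicate 2 (0.99), and Adar with centred arrays (0.89) or without TDPH replicate 2 (0.97). With the adjusted p alone, 30 were higher (10.5% of all tested) and 4 lower (7.24%), and with centred arrays 15 and 6. Centring moved the median of all tested probe sets by over 0.1, to -0.05 from 0.106. T and NK markers had a median difference of 0.08 here, with a summed signal of 2051 to 2526 in TDPH, against 2163 to 2360 in PH.

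**Figure D4:**
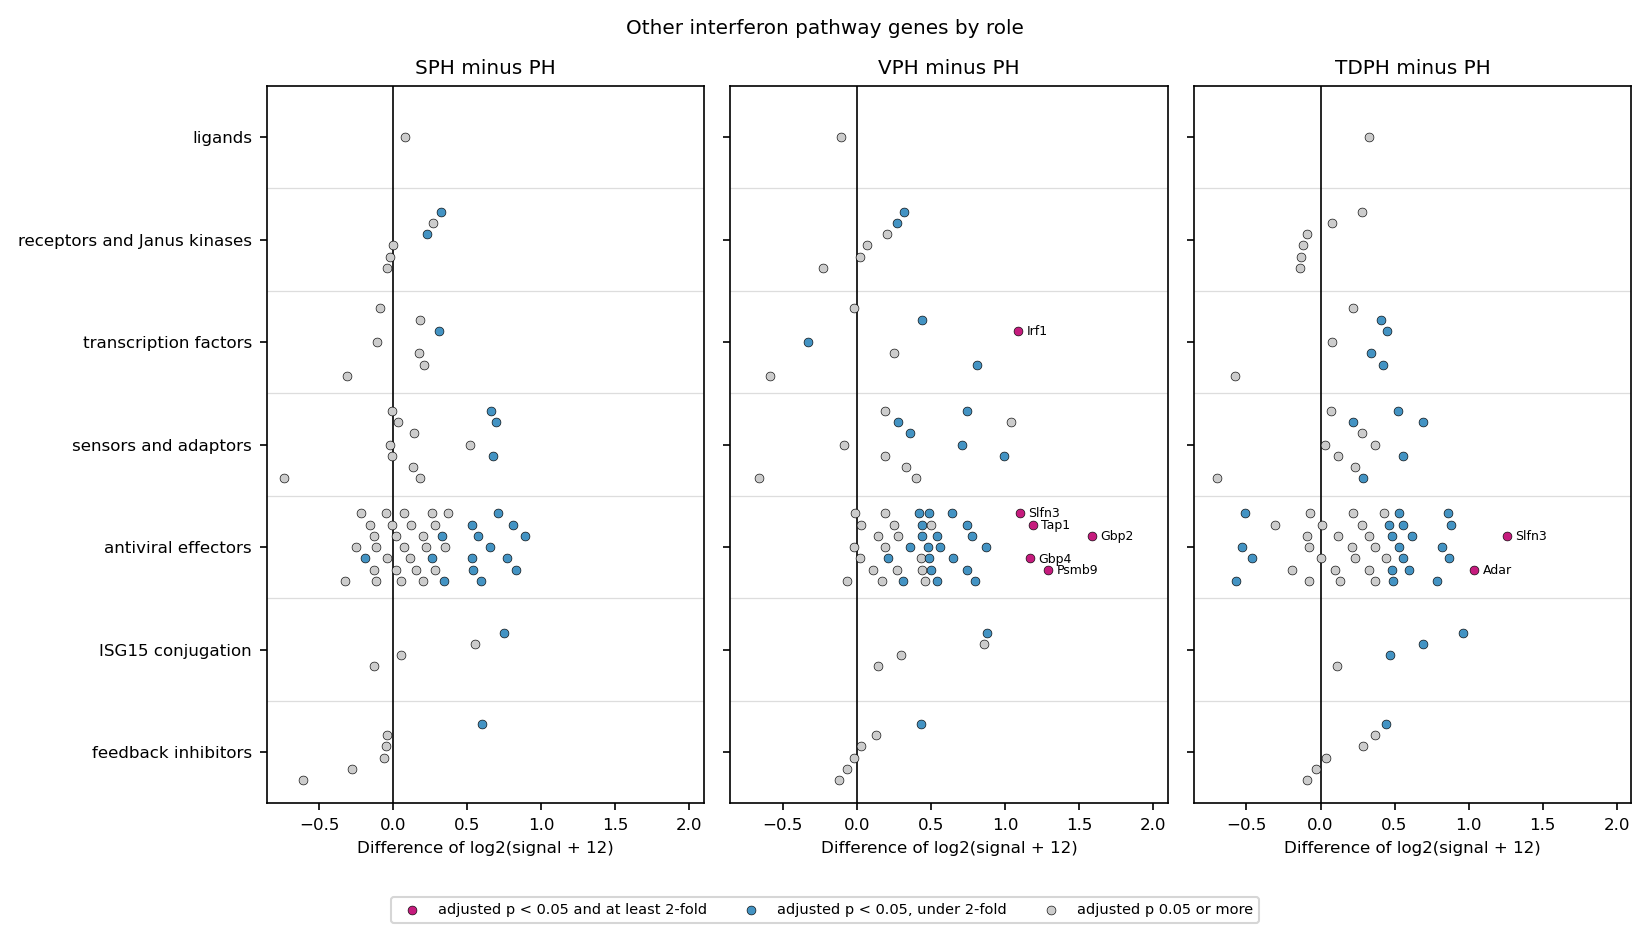
Differences of log2(signal + 12) of the 78 tested pathway genes from PH, by role, in SPH, VPH and TDPH livers; each point is a gene, and colour gives the limma call. Trim25 and Ifi35, listed under a second role, are drawn once among the effectors. The 6 genes that rose in VPH reach 1.59, and 0 rose in SPH.

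The plot of pathway genes sorts them by role. Of 42 effectors tested, 14 were higher in SPH, 25 in VPH and 17 in TDPH than in PH, beside 7.41%, 6.04% and 10.5% of all tested. Those lower were 1, 0 and 4, beside 6.8%, 5.93% and 7.24%. Oas1a, which makes the activator of an RNA-degrading enzyme, was higher in all 3, by 0.89 in SPH, 0.64 in VPH and 0.79 in TDPH (limma adjusted p = 4.28e-05, 0.00107 and 0.000104). Eif2ak2, the kinase that stops translation on double-stranded RNA, was higher in TDPH (0.62, limma adjusted p = 0.00438) and had differences of -0.05 in SPH and 0.25 in VPH. Ifit1 was higher in TDPH (0.49, limma adjusted p = 0.01) and had 0.28 in SPH and -0.02 in VPH. Bst2, which tethers virus particles, was lower in SPH (-0.19) and TDPH (-0.57) and had -0.07 in VPH. Cxcl10, a chemokine for T cells, was higher in SPH (0.83) and VPH (0.78) and had 0.44 in TDPH (limma adjusted p = 0.0215, 0.0356 and 0.223).

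Among 12 sensors and adaptors, 3 were higher in SPH, 5 in VPH and 5 in TDPH, beside 7.41%, 6.04% and 10.5% of all tested. Ifih1, a sensor of long double-stranded RNA, was higher by 0.69 in both SPH and TDPH (limma adjusted p = 2.33e-05 and 1.75e-05) and had -0.09 in VPH. Rigi, its partner sensor, had 0.13 in SPH, 0.19 in VPH and 0.22 in TDPH, of which the TDPH value passed the limma adjusted p. Among 7 transcription factors, Stat2 was higher in SPH (0.31) and TDPH (0.34) and had 0.25 in VPH. A dimmer Stat2 probe set gave -0.52 in SPH, -0.05 in VPH and 0.29 in TDPH. Irf9, its partner, was higher in VPH (0.44) and TDPH (0.41) and had 0.17 in SPH. Irf3 was higher in TDPH (0.45).

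The receptor chain Ifnar1 had -0.04 in SPH, -0.23 in VPH and 0.08 in TDPH by its brightest probe set, while its 6 other tested probe sets ran between 0.16 and 0.66 in SPH, -0.17 and 0.35 in VPH, and 0.13 and 0.75 in TDPH. Jak1, a kinase of the same receptor, had 0.27, 0.20 and 0.28 in the same order. No value of the brightest probe set of Ifnar1 or Jak1 passed the adjusted p. In the Isg15 conjugation group, Uba7, which activates Isg15, was higher in SPH (0.75), VPH (0.88) and TDPH (0.69), while its other probe sets gave 0.53, 0.67 and 0.93 for one and -0.07, 0.46 and 0.22 for the other. Ube2l6, the conjugating enzyme, had -0.13, 0.30 and 0.11. Herc6, a ligase for Isg15 in mice, was higher in TDPH (0.96, limma adjusted p = 0.0237) and had 0.55 in SPH and 0.86 in VPH. Of the feedback inhibitors, Socs3 was higher in SPH (0.60) and TDPH (0.44) and had 0.03 in VPH, and Socs1 was below the filter. Ifnar2, Tyk2 and Tlr3 had no probe set of their own.

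Hepatectomy alone was compared with sham. Here 3 pathway genes rose and 0 fell, where 4.37% of all probe sets were called: Gbp2 (1.29), the antiviral membrane protein Ifitm2 (1.14) and the DNA-sensing adaptor Sting1 (1.46). Sting1 was dim, with a mean signal of 86.5 in PH and 25.8 in sham livers and an SE of 0.44 for the difference, and its call was lost without PH replicate 1 or without sham replicate 1 or 3 (limma adjusted p = 0.0774, 0.075 and 0.0857). By the adjusted p alone, 16 were higher (8.75% of all tested) and 19 lower (13.6%), and with centred arrays 21 and 13, so the balance of directions depended on the scaling. Centring moved the median of all tested probe sets to 0.048, from -0.114. The factors Irf9 (-0.54), Irf1 (-0.50), Irf3 (-0.39) and Stat2 (-0.27) were lower in PH, while Ifih1 (0.52), Ifit1 (0.74), Cxcl10 (0.84) and Socs3 (0.51) were higher. Ifnar1 had -0.57 by its brightest probe set, which passed the adjusted p, and between -0.55 and 0.06 by 6 others. Neutrophil markers had a summed signal of 12011 to 12689 in PH, against 2111 to 2282 in sham livers, and 3 of 7 rose.

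Sham livers were compared with normal livers. Here 1 pathway gene rose and 8 fell, where 3.02% of all probe sets were called. Socs3, an inhibitor of cytokine receptors, rose (1.24). The falls were Gbp2 (-2.83), Sting1 (-2.34), Cxcl10 (-1.89), Cmpk2 (-1.44), Psmb9 (-1.41), the coregulator Trim24 (-1.39), Gbp4 (-1.23) and Irf8 (-1.12). A second Cmpk2 probe set gave -0.69. With the adjusted p alone, 6 were higher (7.77% of all tested) and 29 lower (9.01%), with 6 and 21 after centring. Gbp2 averaged 388 ± 76.0 in sham and 2792 ± 156 in normal livers (SD, n = 3 each). Of 12 T and NK cell markers, 6 fell in sham livers, with a summed signal of 1421 to 1738 in sham, against 3237 to 3525 in normal livers, and their part in these falls was not tested.

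The denervated groups were also compared directly. Between SPH and VPH, 0 pathway genes rose and 2 fell, Gbp2 (-1.37, limma adjusted p = 5.12e-06) and Psmb9 (-1.26, limma adjusted p = 1.01e-11), where 2.78% of all probe sets were called. By the adjusted p alone, 4 were higher in SPH (9.96% of all tested) and 25 lower (10.3%). The 4 included Ifih1 (0.78), Oasl (0.55) and Socs3 (0.57). Between TDPH and SPH, 0 genes rose or fell by limma, where 1.66% were called. At an unadjusted p under 0.05, 23 were higher and 9 lower, and the share of all tested was not counted there either. Without SPH replicate 1 or TDPH replicate 1, 1 gene was called. With the adjusted p alone, 15 were higher in TDPH (8.12%) and 6 lower (6.27%), and with centred arrays 8 and 6. The 15 included Irf3 (0.56), Eif2ak2 (0.67) and Parp9 (0.54).

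Between TDPH and VPH, 0 genes rose and 5 fell, where 2.82% were called. The falls were Gbp2 (-1.90), Sting1 (-1.74), Psmb9 (-1.36), Gbp4 (-1.04) and Irf1 (-1.01). Without TDPH replicate 2, Gbp4 (-0.96) and Irf1 (-0.97) missed 2-fold. Without TDPH replicate 3, Irf1 (-0.94) missed it and Sting1 had a limma adjusted p of 0.0502. Without VPH replicate 2 or 3, Irf1 had -0.98. By the adjusted p alone, 9 were higher in TDPH (12.0% of all tested) and 23 lower (9.02%). Ifih1 (0.77), Adar (0.63), Ifit1 (0.50) and Irf3 (0.47) were among the 9. Of 12 T and NK markers, 6 fell in TDPH against VPH and 6 in SPH against VPH, and their part in these falls was not tested. Gbp2 averaged 773 ± 140 in TDPH and 1147 ± 344 in SPH, against 2893 ± 193 in VPH livers (SD, n = 3 each).

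The genes whose pattern over the 6 groups was most like the members' mean were named by the root mean square difference between centred profiles, over 11480 genes. The mean profile was 0.16 in SPH, 0.23 in VPH, 0.65 in TDPH, -0.56 in PH, -0.23 in sham and -0.24 in normal livers, with each gene at its brightest probe set. Of the members, Irf7 lay nearest to it (0.092) and Mx2 1369202_at farthest of those averaged (0.782). The nearest genes outside the members were Zfp821 (0.127), the kinase Plk3 (0.128), Slfn3 (0.138), the lipid receptor S1pr2 (0.165), the calcium channel Itpr3 (0.167), Scrn1 (0.168), RGD1560873 (0.173) and Ptar1 (0.183). With Mx2 1387283_at in place of the brighter probe set, Slfn3, Zfp821, Itpr3 and Plk3 stayed among the nearest 8 and Herc6, Tead1, Apobr and Sprr1a entered. Slfn3, the only pathway gene in the first list, averaged 2088 in SPH, 2450 in VPH, 2767 in TDPH, 1185 in PH, 1512 in sham and 1846 in normal livers.

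A second deposited table gave signals and log2 ratios of the same groups. Of its 18 signal columns, 17 equalled an array used above, and the first column under its VPH heading equalled none. That column was not used to choose or test anything. In it, 9 of the 10 member probe sets were above all 3 PH arrays, as were 36.2% of all tested probe sets, and Mx2 1369202_at, at 1201, was the exception. Isg15 had 2040, Irf7 2394, Mx1 571 and Usp18 2059 there. It is a lone column without a test, and VPH replicate 3 is in no column of that second table. Whether the column stands in place of that array was not tested. The PH arrays set beside it were used to choose the members. The authors' deposited table of log2 ratios to normal liver gave group means for Isg15 of 0.87 in SPH, 1.40 in VPH, 1.58 in TDPH, -0.43 in PH and 0.11 in sham. For Ifit3 the authors' deposited table gave 1.71, 0.54, 1.20, 0.23 and -0.31 in the same order.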

How the data were processed

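Liver RNA, 5 ug per array by the labels, was hybridised to 18 arrays of 6 groups. Signal intensities are deposited on a linear scale, and the submitters' processing notes name GCOS 2.0. Every array has the same mean after trimming 2% at each end, and no source used here gives the background correction. A second deposited table holds log2 ratios to normal liver in steps of 0.1, per the file headers. The signals were taken without further scaling, as log2(signal + 12). Without the 57 control probe sets, the 22125 that exceeded their array's 40th percentile on 3 or more arrays were tested. The fit of group means used every array (limma 3.58.1, R 4.3.3, lmFit and eBayes with trend; 12 residual and 7.14 prior degrees of freedom). P-values are two-sided and adjusted over all probe sets by Benjamini and Hochberg's method. The 3 arrays of a group limit the precision.

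The fit was tested on simulated data. Each gene took the brightest probe set that names it alone, with symbols updated through the RefSeq table. Named were all members, up to 10 called pathway genes of largest difference per comparison, 24 further fixed genes (1 of them is not reported here), 8 genes of like profile and 3 neutrophil markers. Alb, Ifna1, Oasl, Parp9, Herc6, Dtx3l, Psmb8 and Rtp4 were named after their values were seen. Members and lists were chosen with earlier results of these data known. Alternatives changed the pseudocount, filter, scaling, samples fitted or prior trend, added a replicate block, used the deposited ratios or left out each array. Counts without a fold minimum and the profile with the other Mx2 probe set were added after seeing the data.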

Additional observations from a re-analysis of the deposited data

Results flagged for a closer look

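The following differences between denervated groups, each a limma test of the difference itself, were flagged. SPH was below VPH in Gbp2 (-1.37) and Psmb9 (-1.26). These were 2 of 78 pathway genes, where 2.78% of all probe sets were called in either direction, so the count itself is not read as a result. TDPH was below VPH in Gbp2 (-1.90), Sting1 (-1.74), Psmb9 (-1.36), Gbp4 (-1.04) and Irf1 (-1.01), where 2.82% of all probe sets were called. With a pseudocount of 90, 2 of these 5 calls were left. Sting1 was dim, at 61.0 ± 51.6 in TDPH and 190 ± 29.5 in VPH livers (SD, n = 3 each). Sting1, Gbp4 and Irf1 each lost the call when certain single arrays were left out. Gbp2 averaged 1147 ± 344 in SPH and 773 ± 140 in TDPH, against 2893 ± 193 in VPH livers (SD, n = 3 each). Psmb9 averaged 2941 ± 231 in SPH and 2739 ± 77.1 in TDPH, against 7068 ± 93.8 in VPH livers.

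The column under the VPH heading of the second deposited table that equals no array of the value table was also flagged, as data outside the tests. In it 9 of the 10 member probe sets were above all 3 PH arrays, beside 36.2% of all tested probe sets. Ifit3 had 452 there, Rsad2 341, Mx2 1186 by probe set 1387283_at, and Ifit2 843 by 1384180_at and 602 by 1379568_at. The PH arrays set beside it were used to choose the members, and VPH replicate 3 is in no column of that table, so nothing is read from this count.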

How the results depend on the processing

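The member probe sets gave 550 values under alternatives, of which 43 moved by more than the spread between arrays. The sign changed in 8 values of 5 differences, each at most 0.14 in size as reported. They included Mx2 1387283_at in PH against sham (0.04 as reported, -0.21 with the deposited log2 ratios), Mx2 1369202_at in VPH over PH (-0.03 as reported, 0.18 with those ratios) and Isg15 in sham against normal (-0.07 as reported, 0.11 with those ratios). The cause was not tested. For the median difference of the members (1 probe set a gene), VPH over PH was 0.84 as reported and 0.73 with a pseudocount of 90, 0.75 with centred arrays, 0.78 with quantile normalization and 0.81 with the deposited log2 ratios. TDPH over PH was 1.17 as reported, with 1.01, 1.01 and 1.03 under the same first 3. PH against sham was -0.37 as reported and -0.34, -0.21, -0.30 and -0.44 in the same order, and -0.30 over every probe set. Sham against normal was -0.08 as reported, with -0.02 after centring, 0.02 from the deposited ratios and -0.21 over every probe set. Leaving out an array gave 0.78 to 0.92 for VPH over PH and -0.39 to -0.32 for PH against sham.

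Pathway counts without a fold minimum were 23 (SPH against PH), 38 (VPH against PH), 34 (TDPH against PH), 35 (PH against sham), 35 (sham against normal), 29 (SPH against VPH), 21 (TDPH against SPH) and 32 (TDPH against VPH). TDPH against PH fell to 1 call with a pseudocount of 90, centring or quantile normalization, and TDPH against VPH to 2 with a pseudocount of 90. Leaving out an array gave 0 to 1 (SPH against PH), 1 to 3 (TDPH against PH, with 1 without PH replicate 2 or TDPH replicate 2), 0 to 1 (TDPH against SPH) and 3 to 6 (TDPH against VPH). Of 702 values of single called genes, 23 lost the call, most often Irf1 below VPH in TDPH and Sting1. A pseudocount of 90 gave 105, 145, 100, 385, 325, 171, 123 and 190 calls over all probe sets, in the order of comparisons above. A fit of only the groups compared gave 169 (SPH against PH), 391 (SPH against VPH) and 199 (TDPH against SPH).

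The numbers in the titles did not pair the arrays: deviations of same-numbered arrays correlated at -0.027 to 0.0576 over 45 pairs. With a replicate block the pathway counts were 0, 6, 2, 3, 9, 2, 0 and 5, the same numbers as without it. Dim signals limit the ligands and Sting1.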

Other observations

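Other pathway genes with values of interest were picked after their values were seen. Parp9 and Dtx3l, which act as a complex, were higher in TDPH than PH (0.88 ± 0.08 and 0.60 ± 0.07, SE) and in VPH (0.54 and 0.44), and lower in PH than sham (-0.49 and -0.50), each past the limma adjusted p. In SPH against PH, Parp9 was higher (0.33) and Dtx3l had -0.22. Psmb8, an immunoproteasome subunit, was higher in VPH than PH (0.74 ± 0.05, SE) and had 0.02 in SPH. Rtp4, a receptor chaperone induced by interferon, was higher in VPH (0.80) and TDPH (0.53) and had 0.12 in SPH.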
